A study of Mus musculus with 4 samples.

Results

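The genes described here are 10 genes of the integrated stress response, most of them known for control by upstream open reading frames (uORFs): Atf4, Atf5, Ddit3, Atf3, Ppp1r15a, Ppp1r15b, Trib3, Chac1, Sesn2 and Asns. They were found by gene symbol in a table of 55573 genes. They took 11 rows, because Ddit3 was listed under 2 identifiers, and 1 row for each of the 10 symbols passed the filter of a mean of at least 1 RPKM (reads scaled by the authors to gene length and library size). The signal came from ribosome-protected RNA fragments of primary mouse myoblasts, which are dividing precursors of muscle fibres put into culture. There were 2 libraries from wild-type (WT) cells and 2 whose labels give an eIF5A knockout (eIF5A-KO). The protein eIF5A is a translation factor that helps ribosomes through difficult peptide bonds such as runs of proline. All 4 libraries came from hind-limb muscle of mice aged 3 weeks, and the cells were grown with FGF and taken on day 2 of proliferation. All were treated before lysis with cycloheximide, which holds ribosomes on the mRNA and can change where they sit on leaders. The length of this treatment differs between the sources and is not given here. According to the study's methods the knockout was induced with tamoxifen through Pax7-CreERT2, a recombinase expressed in muscle stem cells, so other cells that a muscle digest can hold keep the gene. The titles of the libraries name polysome sequencing, whereas the extraction text describes nuclease digestion and isolation of protected fragments, so the values are called ribosome-protected signal here.

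The integrated stress response starts when a kinase phosphorylates the initiation factor eIF2 and the supply of initiator tRNA to ribosomes drops. Most mRNAs are then translated less, while a few whose leaders carry uORFs are translated more. Atf4 is the textbook case: ribosomes that translate an early short uORF reinitiate at a later one overlapping the coding sequence when initiator tRNA is plentiful, and pass on to the coding start when it is scarce. The ATF4 protein, a bZIP transcription factor, then switches on genes of amino acid supply, redox defence and cell death, among them most of the other genes described here. In muscle stem cells, phosphorylated eIF2 is known to help keep the cells quiescent.

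The targeted gene did not separate the groups. Eif5a stood at 34.9 and 65.2 RPKM in WT libraries 1 and 2 and at 60.3 and 59.4 RPKM in KO libraries 1 and 2. The values overlapped, with a log2 fold change of 0.32 (SE 0.48, limma adjusted p = 0.839), so the groups are named by their labels throughout. The libraries held between 642429 and 704006 reads, of which 33.9% to 41.5% lay on protein-coding genes in the WT libraries and 59.2% to 65.4% in those labelled KO. Summed over 9 myoblast markers, the signal was 198 to 333 RPKM in WT and 119 to 132 RPKM in KO libraries, and 8 of the 9 had a negative log2 fold change. Myog alone gave 91.0 RPKM in WT library 1 and 4.26 RPKM in WT library 2. The median log2 fold change of these markers was -1.03, or -0.57 with the trend on coding GC content removed. Myod1 and Des were read in all 4 libraries, and Myf5 was listed at 0 in KO library 2. The 8 fibroblast markers summed to 270 to 461 RPKM in WT and 346 to 775 RPKM in KO libraries, and the 6 endothelial markers to 107 to 117 RPKM and 124 to 150 RPKM. The 6 immune markers summed to 28.4 to 38.5 RPKM in WT and 25.0 to 25.9 RPKM in KO libraries, with Itgam listed at 0 in all 4. Cd68 and Lyz2, which carry most of this sum, were lower in both KO libraries, whereas Adgre1 and Csf1r were higher in both. The part of cell makeup in the results below was not tested, and in bulk samples fewer cells of a type and less RNA per cell cannot be told apart.

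The label of uORF control was first checked against the annotated leaders (GENCODE M21, build GRCm38), with 1 transcript taken for each gene. An ATG upstream of the main start was found in 8 of the 10 genes, against 51.9% of 21403 coding genes. In 3 of them (Atf4, Atf5 and Ppp1r15a) an upstream frame ran past the main start, against 16.9% of coding genes. Trib3 and Chac1 had no upstream ATG, so for these 2 genes the annotated leader does not show the feature in the name of the group. The leader of Atf4 is 594 bases long and holds 3 upstream ATGs, 475, 196 and 97 bases before the main start. The second opens a frame of 12 bases with its stop codon, and the last a frame of 180 bases that ends 83 bases inside the coding sequence. Atf5 has the same arrangement in a leader of 373 bases, with a frame of 12 bases that starts 252 bases before the main start and one of 177 bases that starts 121 bases before it and ends 56 bases inside the coding sequence. Another annotated Atf5 leader, of 293 bases and with the same coding length, differs. It holds 6 upstream ATGs, of which 2 open frames that run past the main start. The start codons of these 2 genes are shown because their order, a short uORF followed by an overlapping one, is the layout that the textbook mechanism needs. The capitals mark the ATG, and each window is on the sense strand of the transcript.
Atf4 first upstream start: tctctcATGgggcct
Atf4 second upstream start: gccaccATGgcgtat
Atf4 last upstream start: taagccATGgcgctc
Atf4 main start: cacaacATGaccgag
Atf5 first upstream start: cgcgcaATGgctctg
Atf5 second upstream start: gccgccATGgagtcc
Atf5 main start: acagccATGtcactc

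Ddit3 carries a different layout, and the layout of Ppp1r15a depends on the leader. In Ddit3 2 upstream ATGs, 131 and 122 bases before the main start, share a frame and a stop codon, and the frame of 105 bases closes 26 bases before the coding sequence. This frame is listed in the table as the second Ddit3 entry, ENSMUSG00000116429 (GRCm38, chr10:127290829-127293753, plus strand, 105 exonic bases), which lies wholly inside the exons of Ddit3 and was listed at 0 in all 4 libraries. How reads shared by overlapping entries were counted is not stated. The 0 therefore does not show whether this frame was read, and its reads may also be missing from the main Ddit3 entry. Ppp1r15a has 2 annotated leaders with the same coding length. The longer, of 764 bases, has 7 upstream ATGs, and the frame of the last starts 77 bases before the main start and ends 76 bases inside the coding sequence. Shorter frames, among them those of 18 and 6 bases, come before it, so this leader also holds short uORFs followed by an overlapping frame. The other leader, of 283 bases, has 3 upstream ATGs and no overlapping frame. The starts that stand nearest to each coding sequence are shown for comparison with those of Atf4, again with the ATG in capitals.
Ddit3 first upstream start: tatatcATGttgaag
Ddit3 second upstream start: ttgaagATGagcggg
Ddit3 main start: gcagtcATGgcagct
Ppp1r15a last upstream start: gttaccATGactcag
Ppp1r15a main start: agacacATGgccccg

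Ppp1r15b has 3 upstream ATGs, 502, 279 and 230 bases before its main start, and Atf3, Sesn2 and Asns have 1 each, at 183, 300 and 118 bases. All of these frames close within the leader. Another annotated Asns leader, of 169 bases, holds 2 upstream ATGs, and neither opens an overlapping frame. The table gives 1 value for a whole gene, so reads on a uORF and reads on the main coding sequence could not be separated, and none of the values below measures the choice between them.

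**Figure D1:**
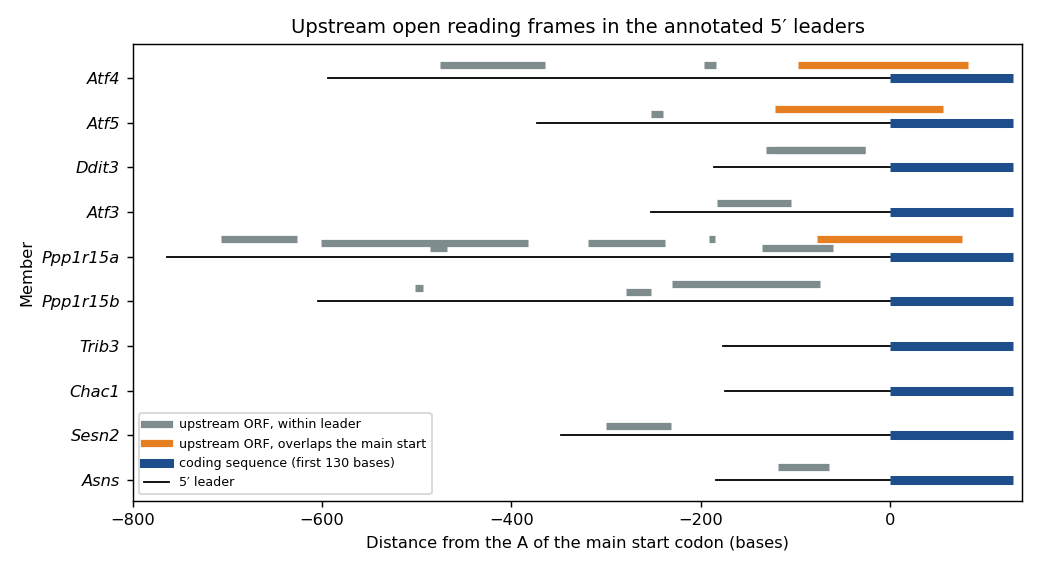
Annotated 5′ leaders of the 10 genes, 1 row each, with the distance in bases from the main start codon on the horizontal axis. Grey bars are upstream frames that close in the leader, orange bars those that run past the main start, and the blue bar is the beginning of the coding sequence; Atf4, Atf5 and Ppp1r15a hold an orange bar, and Trib3 and Chac1 hold no upstream frame.

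ATF4 and its partners of the C/EBP family bind a composite promoter element whose core was searched for as TGATGNAA on both strands (TTNCATCA in reverse). RefSeq promoters (build GRCm38.p6, 250 bases before to 50 bases after the gene start) were given for 9 of the 10 genes, all but Ppp1r15b. The core was found in 4 of these 9, against 3.97% of 32851 promoters. In Asns, where this element is known as the nutrient-sensing site, it lay 23 bases upstream of the start (chr6:7693225-7693232), in Atf3 110 bases upstream (chr1:191183436-191183443) and in Chac1 193 bases upstream (chr2:119351049-119351056). In Trib3 it lay 14 bases downstream of the start (chr2:152344039-152344046). The windows are shown on the sense strand of each gene with the match in capitals, because the element is known from ATF4 target genes. Asns carries the element in the sense direction and the other 3 carry its reverse complement. A match is a description of the letters and not evidence of binding.
Asns promoter window: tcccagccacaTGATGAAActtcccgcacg
Atf3 promoter window: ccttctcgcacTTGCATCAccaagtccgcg
Chac1 promoter window: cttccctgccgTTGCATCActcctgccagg
Trib3 promoter window: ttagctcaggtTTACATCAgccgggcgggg

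The question put to the libraries was whether these genes differed between WT cells and cells labelled eIF5A-KO. No gene of the 10 passed the test. Their log2 fold changes, 5 above 0 and 5 below, had a median of 0.014, with Asns highest at 0.88 and Ppp1r15a lowest at -0.63. The median ran from -0.29 (without KO library 2) to 0.57 (same total of reads) over the alternatives tried. By limma 0 of the 10 had an adjusted p under 0.05, where 0.106% of 11363 tested genes did, and 0 of the 10 had an unadjusted p under 0.05, where 7.32% did. The 12 genes that passed over the whole table held 2 to 8 reads each over the 4 libraries. In limma-voom on the recovered reads, 0 of the 9 genes tested there had an unadjusted p under 0.05, where 10.1% of 9179 tested genes did. The 2 KO libraries lay above both WT libraries for 2 genes (Atf4 and Asns) and below both for 2 (Atf3 and Ppp1r15a), where 20.1% and 20.3% of all tested genes did so, which is the share seen here. With 2 libraries in each group an exact two-sided permutation test cannot give a p under 0.333. The labels do not say that the 2 libraries of a group came from separate animals or cultures, so p-values measure the spread between these libraries only. The genes held between 17 and 606 reads over the 4 libraries, and standard errors of the log2 fold change ran from 0.41 to 0.75. Scaling the libraries to the same total of reads moved the median of all tested genes to 0.47 and left 9 of the 10 genes above 0. Relative to that median Asns was at 1.01, Atf4 at 0.41, Atf3 at -0.17 and Ppp1r15a at -0.51. Under that scaling Asns alone of the 10 had an unadjusted p under 0.05, at 0.0084 in limma with adjusted p = 0.289. The same held with WT library 2 left out, where the limma values for Asns were 0.033 and adjusted p = 0.342.

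**Figure D2:**
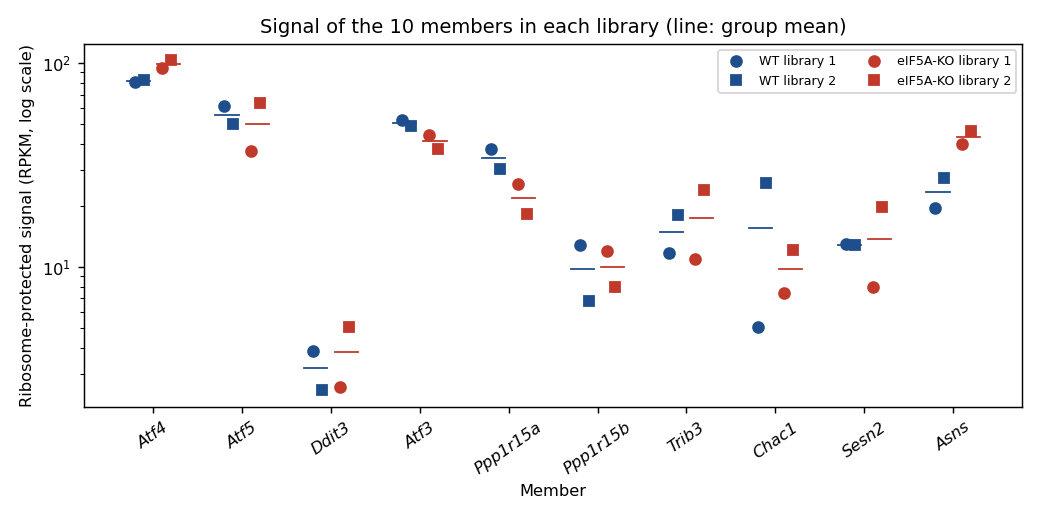
Ribosome-protected signal of the 10 genes in RPKM on a log scale, with each library as a point (blue WT, red eIF5A-KO; circle replicate 1, square replicate 2) and each group mean as a line. Both red points lie above both blue points for Atf4 and Asns and below them for Atf3 and Ppp1r15a, and the other 6 genes overlap.

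Atf4, the central transcription factor of the response (chr15:80255184-80257541, plus strand), stood at 80.9 and 82.8 RPKM in the WT libraries and at 94.9 and 103 RPKM in the KO libraries, on 115, 92, 203 and 196 reads. Both KO values were above both WT values. Group means were 81.9 ± 1.35 (SD, n = 2) and 98.9 ± 5.65 (SD, n = 2) RPKM, a ratio of 1.21. In limma the log2 fold change was 0.27 (SE 0.43, 95% interval -0.79 to 1.33, adjusted p = 0.848), so a change of 2-fold in the higher direction lies inside the interval. It was 0.47 with quantile normalization, 0.16 with the same protein-coding total and 0.88 with the same total of reads. The WT mean stood at percentile 98.1 of the tested protein-coding genes. Atf4 was thus read strongly in both groups.

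Atf5, the factor closest to Atf4 in leader layout (chr7:44812256-44816658, minus strand), did not separate the groups. It stood at 61.6 and 50.1 RPKM in the WT libraries and at 37.1 and 63.4 RPKM in the KO libraries, so the KO libraries held both the lowest and the highest value. The log2 fold change was -0.19 (SE 0.47, limma adjusted p = 0.907). The first 571 bases of its span lie under Nup62 on the other strand, and without a stated strand rule reads of the 2 genes could not be told apart.

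Ddit3 codes for CHOP, the factor that drives cell death in prolonged stress (ENSMUSG00000025408, chr10:127290774-127296288, plus strand). It had 4, 2, 4 and 7 reads in WT libraries 1 and 2 and KO libraries 1 and 2, which gave 3.87, 2.48, 2.57 and 5.06 RPKM. The groups overlapped and the log2 fold change was 0.18 (SE 0.45, limma adjusted p = 0.910). At 17 reads in all, this gene had the fewest reads of the 10, and its WT mean stood at percentile 34.8 of the tested protein-coding genes. Its last 68 bases overlap Mars on the other strand.

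Atf3, a bZIP repressor that ATF4 induces (chr1:191170296-191218039, minus strand), had lower values in both libraries labelled KO, without passing the test. It stood at 52.4 and 49.3 RPKM in WT and at 44.5 and 37.9 RPKM in KO libraries, on 68, 50, 87 and 66 reads. Both KO values were below both WT values. The ratio of the WT mean to the KO mean was 1.23, and the log2 fold change of -0.30 (SE 0.41, limma adjusted p = 0.822) was smaller than its standard error.

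The mark on eIF2 is removed by a phosphatase with a choice of 2 regulatory subunits. Ppp1r15a codes for GADD34, the stress-induced subunit (chr7:45522916-45526268, minus strand), and stood at 37.8 and 30.4 RPKM in WT and at 25.5 and 18.1 RPKM in KO libraries, on 67, 42, 68 and 43 reads. Both KO values were below both WT values, and the WT mean of 34.1 ± 5.29 (SD, n = 2) was 1.56 times the KO mean of 21.8 ± 5.23 (SD, n = 2). The log2 fold change was -0.63 (SE 0.42, 95% interval -1.66 to 0.40, limma adjusted p = 0.697), and -0.40 without KO library 2. Ppp1r15b codes for CReP, the subunit present without stress (chr1:133131143-133139783, plus strand), and stood at 12.8 and 6.83 RPKM in WT and at 12.0 and 7.97 RPKM in KO libraries. Its groups covered nearly the same range, with a log2 fold change of 0.06 (SE 0.46, limma adjusted p = 0.973). On the other strand Tulp2 overlaps 717 bases of Ppp1r15a and Gm26616 overlaps 640 bases of Ppp1r15b. Tulp2 had 2, 0, 0 and 0 reads in WT libraries 1 and 2 and KO libraries 1 and 2, and Gm26616 had 0, 0, 0 and 1. Without a stated strand rule, reads in these overlaps could not be told apart. The ratio of Ppp1r15a to Ppp1r15b signal within a library was 2.97 and 4.44 in WT and 2.12 and 2.28 in KO libraries. These did not overlap, and the exact permutation p was 0.333, the smallest the design allows; the pair of genes, like the other pairs below, was chosen after the values were seen.

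Of the target genes, Asns had the log2 fold change farthest from 0. It codes for asparagine synthetase, which makes asparagine from aspartate (chr6:7675169-7693254, minus strand). Its signal was 19.4 and 27.2 RPKM in WT and 39.9 and 46.6 RPKM in KO libraries, on 32, 35, 99 and 103 reads. Both KO values were above both WT values, and the KO mean of 43.3 ± 4.75 (SD, n = 2) was 1.86 times the WT mean of 23.3 ± 5.48 (SD, n = 2). The log2 fold change was 0.88 (SE 0.42, 95% interval -0.15 to 1.91, limma adjusted p = 0.676). Its unadjusted p was 0.081 in limma and 0.051 in limma-voom, where the adjusted p was 0.495.

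The other target genes overlapped between groups. Trib3, a pseudokinase that binds ATF4 and restrains it (chr2:152337422-152344032), stood at 11.7 and 18.0 RPKM in WT and at 10.9 and 23.9 RPKM in KO libraries. Chac1, an enzyme that degrades glutathione (chr2:119351229-119354381), stood at 5.07 and 25.9 RPKM in WT and at 7.41 and 12.1 RPKM in KO libraries. Its WT library 2 was the highest of the 4 and its WT library 1 the lowest, and the log2 fold change of -0.28 had the widest error (SE 0.75). Sesn2, a sestrin that restrains mTORC1 when leucine is short (chr4:132492032-132510501), stood at 12.9 and 12.8 RPKM in WT and at 7.93 and 19.6 RPKM in KO libraries, on either side of the WT values. Its span holds the gene Gm12981 on the same strand, listed at 0 reads in all 4 libraries. The limma adjusted p of these 3 genes was 0.936, 0.913 and 0.988.

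**Figure D3:**
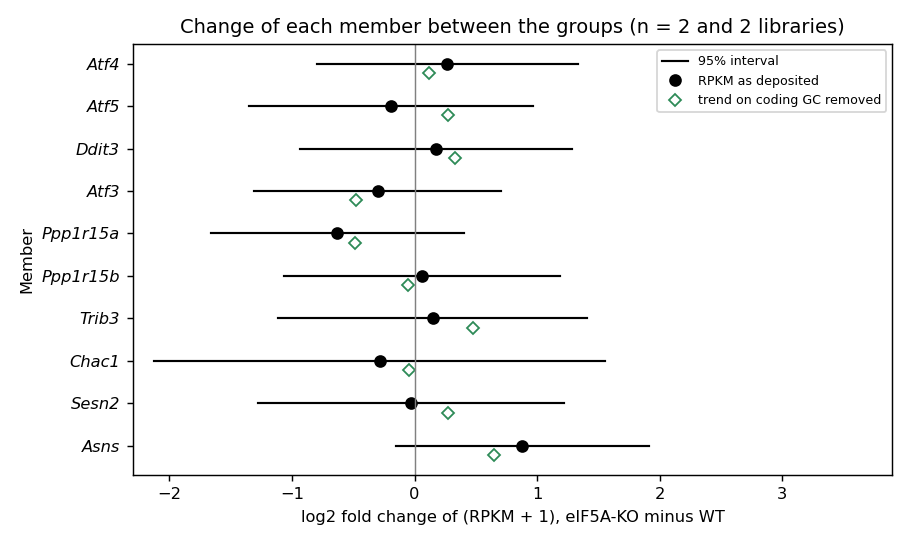
Log2 fold change of (RPKM + 1), eIF5A-KO minus WT, for the 10 genes. Black points with bars give the limma estimate with its 95% interval, and open diamonds give the estimate after the trend of fold change on coding GC content was removed; every bar crosses 0, with Asns highest and Ppp1r15a lowest.

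GC content of the coding sequence moved with the contrast over the whole table, with a Spearman correlation across genes of -0.36 between log2 fold change and coding GC over 9840 genes, which are not independent replicates. Among the genes described here coding GC ran from 47.8% in Asns to 65.3% in Atf5. With the trend removed, Asns was at 0.65, Ppp1r15a at -0.49, Atf3 at -0.48 and Atf4 at 0.12 on the log2 scale. Trib3 was then at 0.48, Ddit3 at 0.33 and Chac1 at -0.05. The median of the 10 genes was 0.19, with 6 above 0. Atf5 changed sign to 0.27 and Sesn2 to 0.27, while Ppp1r15b changed sign to -0.06.

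Levels can be compared between genes only per length, and for ribosome signal the coding length is the natural unit. Reads per kilobase of coding sequence, scaled as for RPKM, put Atf3 first in the WT libraries at 207 and 194, ahead of Atf4 at 182 and 186 and Atf5 at 144 and 117. In the KO libraries Atf4, at 213 and 231, was ahead of Atf3, at 176 and 150, so on this scale the order of these 2 genes was opposite in the groups. The WT order rested on 68 and 50 reads of Atf3 and 115 and 92 of Atf4, and the difference in order was not tested. In RPKM, which divides by gene length, Atf4 was ahead of Atf3 in all 4 libraries. By WT mean Ppp1r15a followed, at 56.3 and 45.2, then Asns at 31.5 and 44.1, although Chac1 was above both in WT library 2 at 63.2, and in the KO libraries this pair was in the opposite order, with Asns at 64.7 and 75.6 and Ppp1r15a at 38.0 and 27.0. The WT means of Asns, Chac1, Sesn2, Trib3 and Ppp1r15b lay between 26.2 and 37.8, with overlapping values between neighbours, and Ddit3 was last at 10.7. This scale places every read of a gene on its coding sequence, although the coding sequence is between 25.3% (Atf3) and 67.2% (Ppp1r15a) of the gene length used for RPKM. Reads on leaders are included, except that those on the upstream frame of Ddit3 with its own entry may not be.

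The 10 genes together took 0.167% and 0.159% of protein-coding reads in the WT libraries and 0.140% and 0.173% in the KO libraries. These shares overlapped between groups. Asns took 7.11% and 10.1% of the reads of the 10 genes in WT and 15.3% and 15.5% in KO libraries. Ppp1r15a took 14.9% and 12.2% in WT and 10.5% and 6.47% in KO libraries. Atf4 took 25.6% and 26.7% in WT and 31.4% and 29.5% in KO libraries. For each of these 3 genes the 95% Wilson interval of at least 1 WT library overlapped that of a KO library. These intervals hold the error of counting alone, because PCR copies of a fragment are counted as separate reads.

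**Figure D4:**
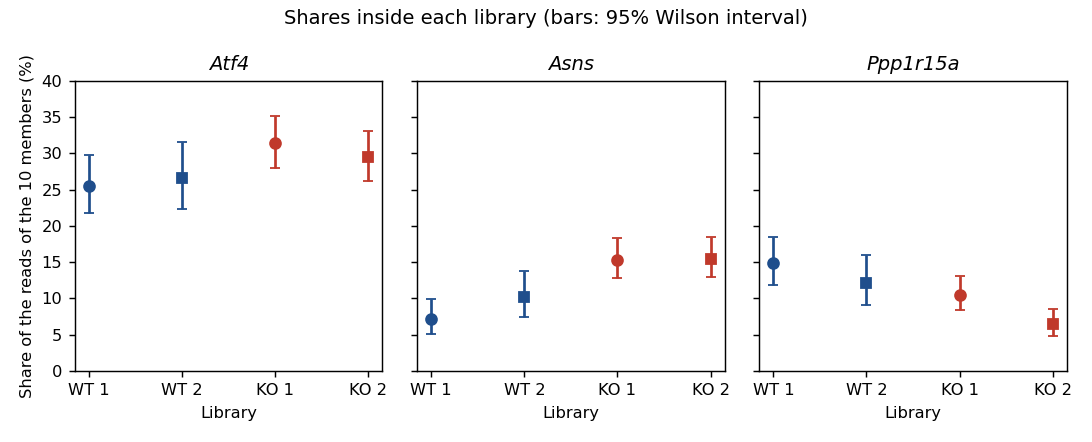
Share of the reads of the 10 genes that fell on Atf4, Asns and Ppp1r15a in each library, in percent, with 95% Wilson intervals of the counts (blue WT, red eIF5A-KO). Asns takes 7.11% and 10.1% in WT and 15.3% and 15.5% in KO libraries, and Ppp1r15a runs the other way.

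Ratios of 2 genes within a library do not depend on the scaling between libraries. The ratio of Asns to Atf4 RPKM was 0.240 and 0.328 in WT and 0.420 and 0.453 in KO libraries. That of Ppp1r15a to Atf4 was 0.468 and 0.367 in WT and 0.269 and 0.176 in KO libraries, and that of Asns to Ppp1r15a was 0.513 and 0.895 in WT and 1.56 and 2.57 in KO libraries. None of these 3 ratios overlapped between groups. Each had an exact permutation p of 0.333, or 0.417 after Benjamini-Hochberg adjustment over the 5 ratios computed, and the design allows no smaller exact p. For the ratios with Ppp1r15a the lack of overlap was fixed by the values already given. Asns and Atf4 were higher and Ppp1r15a lower in both KO libraries, so these ratios add no further result. The ratio of Trib3 to Atf4 did overlap, at 0.145 and 0.217 in WT and 0.115 and 0.232 in KO libraries.

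Runs of proline are the best known obstacle that eIF5A relieves, so the coding sequences were searched for them. A run of 3 or more prolines was found in 4 of the 10 genes, against 19.7% of coding genes. Atf5 had the longest, with 7, and Trib3, Chac1 and Ppp1r15b had 3 each. The log2 fold changes of these 4 genes were -0.19, 0.15, -0.28 and 0.06. The part of proline runs in these values was not tested.

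The arms of the pathway around these genes were described by lists of genes with known roles, and no gene of any list passed the adjusted test. The sensors upstream, the eIF2 kinases and their modifiers, had a median log2 fold change of 0.17 over 7 genes, with 4 above 0 and 3 below, against a median of 0.00026 over all tested genes. With the GC trend removed the median of these sensors was -0.065, on the other side of 0. Within that list Eif2ak2, which codes for the double-stranded RNA sensor PKR, was highest at 0.83 (SE 0.53) and Eif2ak1, the haem-regulated kinase, lowest at -0.51 (SE 0.38). Eif2ak2 was at 0.26 without WT library 2, at 1.40 without WT library 1, at 0.47 without KO library 1 and at 0.48 with the GC trend removed. The subunits of eIF2 and of its exchange factor eIF2B had a median of 0.36 over 8 genes, 7 of them above 0, and of 0.15 with the GC trend removed. Eif2b1, a regulatory eIF2B subunit, stood at 7.07 and 5.76 RPKM in WT and at 12.8 and 13.0 RPKM in KO libraries, at a log2 fold change of 0.91 (SE 0.37, limma unadjusted p = 0.048, adjusted p = 0.672). With the GC trend removed it was at 0.69 with an unadjusted limma p of 0.108, and in limma-voom the unadjusted p was 0.102. Eif2b5, the catalytic subunit, was lowest at -0.19 (SE 0.38).

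The list nearest to Asns in function was that of amino acid synthesis and transport, genes regarded as ATF4 targets. Of its 16 tested genes 12 were above 0 and 4 below, with a median of 0.34, and for 8 of them both KO values lay above both WT values while for 0 they lay below, where the whole table had 20.1% and 20.3%. Shmt2, the mitochondrial enzyme that turns serine into glycine, stood at 9.60 and 11.6 RPKM in WT and at 36.9 and 21.1 RPKM in KO libraries, a log2 fold change of 1.32 (SE 0.44, limma unadjusted p = 0.025, adjusted p = 0.665). Psat1, which makes a serine precursor, stood at 5.85 and 13.0 RPKM in WT and at 19.2 and 23.6 RPKM in KO libraries, a log2 fold change of 1.19 (SE 0.48, limma unadjusted p = 0.050, adjusted p = 0.672). Psat1 was at 0.67 without WT library 1, and the unadjusted p of Shmt2 was over 0.05 without WT library 1, WT library 2 or KO library 1. Pycr1, which makes proline, was lowest at -0.68 (SE 0.64), and at 0.032 without KO library 2. With the GC trend removed the list's median was 0.32, against 0.0063 over all tested genes. Leaving out WT library 1 gave a median of 0.18, and leaving out WT library 2 gave 0.73. None of these genes passed the adjusted test, and the count describes these 4 libraries.

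The bZIP factors that pair or compete with ATF4 had a median of -0.46 over 10 genes, 6 of them below 0, and -0.07 with the GC trend removed or -0.15 without KO library 1. Nfe2l2, which codes for the antioxidant factor NRF2, was highest at 24.0 and 28.5 RPKM in WT and 62.2 and 45.0 RPKM in KO libraries (log2 fold change 0.99, SE 0.42). Jund, an AP-1 subunit of high coding GC content, was lowest at 80.6 and 49.6 RPKM in WT and 9.92 and 42.3 RPKM in KO libraries (log2 fold change -1.56, SE 0.73). Without KO library 1 Jund was at -0.57 and without KO library 2 at -2.56. Other targets of ATF4 had a median of 0.24 over 13 genes, 8 above 0 and 5 below, but of -0.10 without WT library 2 and 0.086 in limma-voom. They ran from the cell death gene Bbc3 at -1.11 (SE 0.53) to Herpud1, a factor of protein disposal at the endoplasmic reticulum, at 0.90 (SE 0.38). Bbc3 was at -0.47 without KO library 1, at -1.74 without KO library 2 and at -0.62 with the GC trend removed.

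The other branches of the unfolded protein response, which ATF6 and IRE1 drive, had a median of 0.64 over 14 genes, with 9 above 0 and 5 below. Their summed signal was 659 and 561 RPKM in WT and 1689 and 668 RPKM in KO libraries, so KO library 1 stood apart from the other 3. Dnajb11, a chaperone of the endoplasmic reticulum, was highest at 1.66 (SE 0.69), or 0.82 without WT library 2 and 2.51 without WT library 1. Sdf2l1, another such chaperone component, was lowest at -1.02 (SE 0.43), or -0.62 with the GC trend removed. The median of the list was 0.010 without KO library 1. Other genes known for uORF control had a median of 0.11 over 8 genes, 6 above 0, and of -0.19 with the GC trend removed. Among them Cebpa, a bZIP factor whose uORF sets its isoforms, stood at 16.4 and 11.3 RPKM in WT and at 5.02 and 4.70 RPKM in KO libraries, at -1.32 (SE 0.39, limma unadjusted p = 0.015, adjusted p = 0.650), with 62 reads in all. With the GC trend removed Cebpa was at -0.82 and its unadjusted p in limma was 0.094. Mdm2, the ligase of p53, was highest at 0.50 (SE 0.37), or 0.27 with the GC trend removed.

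**Figure D5:**
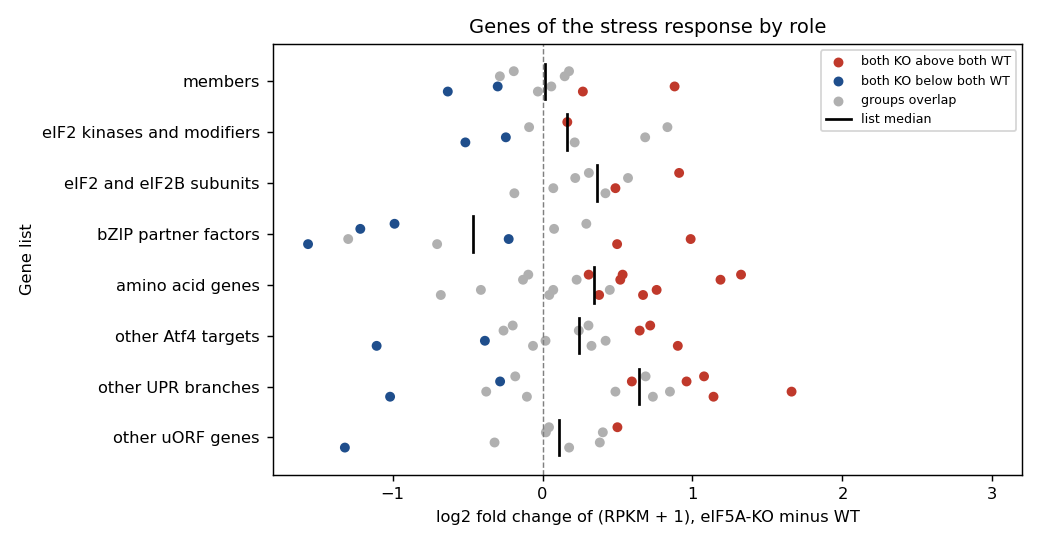
Log2 fold change of (RPKM + 1), eIF5A-KO minus WT, of each tested gene by role in the pathway. Each point is a gene, red where both KO libraries lie above both WT libraries, blue where both lie below and grey where the groups overlap; the black bar is the list median and the dashed line the median of all tested genes, and the amino acid genes hold 8 red and 0 blue points.

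The genes whose pattern over the 4 libraries was most like that of Atf4 were sought among 4769 protein-coding genes by the root mean square difference of centred log2(RPKM + 1). They were Dpysl3 at a difference of 0.018, Syf2 at 0.036 and Bzw2 at 0.038. Dpysl3 stood at 11.8, 11.9, 13.5 and 14.8 RPKM in WT libraries 1 and 2 and KO libraries 1 and 2. With 4 libraries such likeness is a description of these values only.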

How the data were processed

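Ribosome-protected fragments were sequenced in 4 libraries, 2 WT and 2 labelled eIF5A-KO, grouped and numbered by their titles. Per the study's methods, reads of low quality and reads of rRNA and tRNA were removed, the rest were mapped with TopHat2 (mm10 per the labels) and counted with HTSeq; strand and overlap rules are not given in the sources used here. The deposited table holds RPKM values that the authors computed for each gene. RPKM times gene length gave whole multiples of 1 step for 100% of values above 0 (tolerance 0.01 reads), so reads were recovered. The library size used by the authors, 471136 to 906990, differed from the totals of 642429 to 704006 reads.

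Members, lists and tests were chosen with earlier results of these data known. The test was limma 3.58.1 (R 4.3.3; lmFit, then eBayes with a mean-variance trend), two-sided, on log2(RPKM + 1). It covered the 11363 genes whose mean over the libraries reached 1 RPKM, with Benjamini-Hochberg adjustment over all of them. This scale understates changes of weakly read genes. Single values used an exact permutation test (scipy 1.17.1), and shares a 95% Wilson interval. The fit was tested on simulated data: signs were recovered, but a log2 change of 2, larger than that of any member, gave no call when it was the only size used. The absence of calls among the members therefore says little. A larger size, of 5, was added after that. It was mostly recovered, and unchanged genes then passed the threshold only where they had fewer than 20 reads.

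Leaders and coding sequences came from GENCODE M21, which held 99.7% of the table's identifiers, with 1 basic transcript per gene (best principal isoform, then longest coding sequence). Promoters came from RefSeq. Named genes were all members, Eif5a, the lowest and highest gene of each list with at least 20 reads, every listed gene at an unadjusted p under 0.05, and the 3 genes most like Atf4. Alternatives were other pseudocounts, filters, scalings, gene sets, variance models, a GC correction, the replicate block, limma-voom on recovered reads and leaving out each library. No matched RNA levels were analysed here, so translation efficiency was not computed.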

Additional observations from a re-analysis of the deposited data

How the results depend on the processing

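Asns, Atf4, Ddit3, Ppp1r15a and Trib3 kept the sign of their log2 fold change under every alternative that kept all 4 libraries and tested them, but Ppp1r15a was at -0.039 on scaling to the same total of reads. This scaling, which moved the median of all tested genes to 0.47, gave 0.41 for Atf5, 0.30 for Atf3, 0.28 for Chac1, 0.54 for Sesn2 and 0.38 for Eif2b5. The median of the 10 genes was then 0.57, with 9 above 0. Under that scaling the list medians were 0.71 for the eIF2 kinases, 0.89 for eIF2 and eIF2B, 0.13 for the bZIP partners, 1.25 for the other branches of the unfolded protein response, 0.86 for the amino acid genes, 0.78 for the other ATF4 targets and 0.65 for the other uORF genes. With the GC trend removed, Atf5 was at 0.27, Sesn2 at 0.27 and Ppp1r15b at -0.056, and the medians were -0.065 for the eIF2 kinases, 0.15 for eIF2 and eIF2B and -0.19 for the other uORF genes. Scaling to the same protein-coding total gave -0.047 for Ppp1r15b and 0.27 for eIF2 and eIF2B. In limma-voom eIF2 and eIF2B had a median of 0.44 and the other ATF4 targets 0.086; those targets were at 0.089 where a mean of 5 RPKM was required and at 0.13 with at least 20 reads. Cebpa was at -0.78 with the same total of reads. The unadjusted p of Eif2b1, Psat1, Shmt2 and Cebpa crossed 0.05 under some alternatives, as did those of Jund, Dnajb11, Nfe2l2, Herpud1, Sdf2l1, Bbc3 and Mdm2 in the other direction. The causes were not tested.

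The 12 genes at an adjusted p under 0.05 became 0 with a pseudocount of 0.1, without the filter on low values, with the minimum raised to 5 RPKM, with at least 20 reads, with the same total of reads, with protein-coding genes only, with the GC trend removed, without the variance trend and with the replicate block, and 39 in limma-voom. None of the 12 held 20 reads. The 832 genes at an unadjusted p under 0.05 became 505 at the minimum of 5 RPKM and 1854 with the same total of reads. Replicate numbers are shared by the groups, and same-numbered libraries correlated at 0.057 in their deviations from the group means. The titles give only the number, and this correlation cannot show whether same-numbered libraries were prepared together. With the replicate block 0 genes were called and no member changed its call.

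Leaving out 1 library at a time, the log2 fold change ran over 0.21 to 0.33 for Atf4, -0.57 to 0.19 for Atf5, -0.20 to 0.56 for Ddit3, -0.41 to -0.19 for Atf3, -0.87 to -0.40 for Ppp1r15a, -0.35 to 0.46 for Ppp1r15b, -0.38 to 0.68 for Trib3, -1.36 to 0.79 for Chac1, -0.63 to 0.57 for Sesn2 and 0.65 to 1.11 for Asns. It ran over -1.39 to 0.032 for Pycr1 and -0.12 to 0.76 for Eif5a. Among the genes named in the lists it ran over -2.56 to -0.57 for Jund, 0.82 to 2.51 for Dnajb11, 0.26 to 1.40 for Eif2ak2, -1.74 to -0.47 for Bbc3, 0.67 to 1.70 for Psat1, 0.94 to 1.71 for Shmt2, -1.57 to -1.07 for Cebpa and -1.35 to -0.69 for Sdf2l1. The list medians ran over -0.29 to 0.26 for the 10 genes, -0.17 to 0.18 for the eIF2 kinases, 0.25 to 0.51 for eIF2 and eIF2B, -0.78 to -0.15 for the bZIP partners, 0.18 to 0.73 for the amino acid genes, -0.10 to 0.29 for the other ATF4 targets, 0.010 to 1.02 for the other branches of the unfolded protein response, 0.09 to 0.29 for the other uORF genes. Between 3 and 7 of the 10 genes were then above 0, 0 genes had an adjusted p under 0.05 and 430 to 1600 an unadjusted p under 0.05. Atf5, Ppp1r15b, Chac1 and Sesn2 changed sign without KO library 1, Ddit3 and Trib3 without KO library 2, Ddit3, Ppp1r15b and Chac1 without WT library 2, Trib3 and Eif5a without WT library 1, and Pycr1 without KO library 2. A lone library of a group was assumed to vary like the other group. The adjusted p of Asns over all alternatives ran from 0.289 to 0.944.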
